A study of Mus musculus with 10 samples.

Results

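The genes described here are Myc and 5 genes whose proteins work in the same transcription factor network, Max, Mxd1, Mxi1, Mnt and Mlx. These 6 genes were taken by name from a table of 13809 genes, and all 6 passed the filter on low values. Myc was picked because its transcript was higher with LPS in one kind of macrophage and lower in the other, so all its values are given as a description, without a test. The other 5 genes are tested in every comparison.

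The study compared macrophages of mouse bone marrow by RNA sequencing. The resident macrophages were CD163+ cells of 12-week-old C57BL/6 mice that a magnetic column held back without any staining, and the sample titles give them no days of culture before the treatment. The bone marrow derived macrophages (BMDM, CD163-) grew from marrow cells that passed through the column. Their medium held 20% supernatant of L929 cells, which is a source of the macrophage growth factor CSF1. The protocol gives 6 days of culture and the sample titles give 7. The 4 groups were resident macrophages given LPS (3 libraries), untreated resident macrophages (3), BMDM given LPS (2) and untreated BMDM (2). LPS, the bacterial lipopolysaccharide that Toll-like receptor 4 recognises, was given at 1 µg/ml for 4 h. Resident cells and BMDM differ in source and in culture, and these cannot be told apart. The labels do not say whether the libraries of a group came from separate mice or cultures, and the p-values reflect no more than how these libraries vary.

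MYC binds DNA only as a dimer with MAX, at E-box sequences such as CACGTG, and there it raises transcription of genes for ribosome production, nucleotide synthesis and cell growth. MXD1, MXI1 (also called MXD2) and MNT also pair with MAX, bind the same sequences and bring in SIN3 corepressor complexes, so they oppose MYC. MLX is a parallel partner that pairs with the glucose-sensing factors MLXIP and MLXIPL and with some of the MXD proteins and MNT. In myeloid cells Mxd1 is known as a gene of differentiation, and in macrophages Myc is known as a gene that CSF1 induces.

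The genes lie on 5 chromosomes of the mm10 (GRCm38) build, with positions from the GENCODE M21 annotation. Myc is at chr15:61985391-61990374 on the plus strand, Max at chr12:76937269-76962201 on the minus strand and Mxd1 at chr6:86647042-86669161 on the minus strand. Mxi1 is at chr19:53310518-53375810, Mnt at chr11:74830920-74845725 and Mlx at chr11:101087277-101092207, all on the plus strand. The exons of Mlx share 385 bases, 19.3% of its exon length, with Psmc3ip on the opposite strand, and those of Mxi1 share 194 bases, 2.8%, with Gm10197. Whether reads were counted by strand is not given in the sources used here, so reads of such partners may be among the Mlx and Mxi1 values.

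CACGTG, a palindrome that reads the same on both strands, was searched in RefSeq promoter windows of GRCm38.p6, which run from 250 bases before to 50 bases after a gene's start. Of the 5 members with a window in the table used, Max, Mnt and Mlx hold CACGTG, and Mxd1 and Mxi1 (3 windows) do not. Over all 32851 windows the share with CACGTG is 7.15%, and over the tested genes with a window it is 11.5%. The sequences are shown for the 3 members that hold the motif, since a factor of the network can bind such a sequence in another member, and for Mxd1, the member that changed most with LPS in BMDM. They are written 5′ to 3′ on the strand of the gene, with CACGTG in capitals. A match of letters is a description of the window and not a binding site.
Max, chr12:76962199-76962498, minus strand: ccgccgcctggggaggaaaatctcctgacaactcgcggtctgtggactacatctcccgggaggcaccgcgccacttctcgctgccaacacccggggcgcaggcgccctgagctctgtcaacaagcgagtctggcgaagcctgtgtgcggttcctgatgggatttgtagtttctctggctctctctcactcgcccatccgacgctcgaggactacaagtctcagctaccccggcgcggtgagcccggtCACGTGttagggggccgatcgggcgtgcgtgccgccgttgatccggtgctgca
Mnt, chr11:74830674-74830973, plus strand: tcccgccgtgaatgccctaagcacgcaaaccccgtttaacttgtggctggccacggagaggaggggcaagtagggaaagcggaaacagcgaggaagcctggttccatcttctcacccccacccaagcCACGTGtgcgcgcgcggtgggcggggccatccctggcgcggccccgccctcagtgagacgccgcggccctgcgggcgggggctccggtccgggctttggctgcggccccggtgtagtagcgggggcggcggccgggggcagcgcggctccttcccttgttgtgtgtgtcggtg
Mlx, chr11:101087040-101087339, plus strand: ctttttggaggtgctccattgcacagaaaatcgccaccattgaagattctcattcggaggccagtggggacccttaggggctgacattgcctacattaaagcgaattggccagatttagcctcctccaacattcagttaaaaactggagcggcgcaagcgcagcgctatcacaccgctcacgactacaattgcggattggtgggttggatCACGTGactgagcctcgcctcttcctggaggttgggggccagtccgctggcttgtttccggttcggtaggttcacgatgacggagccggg
Mxd1, chr6:86669110-86669409, minus strand: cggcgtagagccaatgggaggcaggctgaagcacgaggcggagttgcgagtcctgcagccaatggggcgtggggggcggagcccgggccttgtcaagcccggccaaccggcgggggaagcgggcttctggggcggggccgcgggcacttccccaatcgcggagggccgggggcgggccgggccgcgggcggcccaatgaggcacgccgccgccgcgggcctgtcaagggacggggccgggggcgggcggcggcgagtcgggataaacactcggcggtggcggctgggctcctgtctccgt
The motif begins 3 bases before the start in Max, 123 before it in Mnt and 40 before it in Mlx.

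Levels are normalised read counts, that is, reads per gene divided by a factor for each library, and they do not correct for gene length. The recovered depth was 27091734 to 37701333 reads in genes per library. Cd163, the gene of the marker in the labels, was at 4131 to 6476 in LPS-treated and 5282 to 10740 in untreated resident libraries, against 14.4 to 14.9 in LPS-treated and 41.9 to 53.9 in untreated BMDM. All 12 macrophage markers, such as Adgre1 and Csf1r, were above the table's floor of 1 in every group. They summed to 0.659 to 0.7765% of the values in LPS-treated and 0.836 to 1.08% in untreated resident libraries. In BMDM they summed to 0.543 to 0.549% with LPS and 0.711 to 0.779% without. The shares with and without LPS did not overlap. As summed normalised reads, the resident groups overlapped (196900 to 251600 with LPS, 221900 to 335200 without). In BMDM the summed reads were higher with LPS (209700 to 212800) than without (184600 to 192400), the opposite of the share. In resident macrophages 2 of the 12 fell with LPS by limma (16.7%, against 5.57% of all tested genes) and none rose. These were Fcgr1 (-0.57 ± 0.09, adjusted p = 0.00408) and Siglec1 (-0.59 ± 0.12, adjusted p = 0.0103). In BMDM 5 of the 12 rose and 2 fell (41.7% and 16.7%, against 28.3% and 29.5% of all tested genes). Fcgr1 (2.05 ± 0.11) and Siglec1 (0.95 ± 0.14) were among those that rose there. The part of these marker differences in the resident LPS differences was not tested. The 13 neutrophil markers summed to 1.22 to 1.42% in LPS-treated and 0.760 to 1.54% in untreated resident libraries, against 0.0194 to 0.0204% in LPS-treated and 0.0106 to 0.0107% in untreated BMDM, where Ly6g was at the floor. The 8 erythroid markers in the table gave 0.0907 to 0.122% in LPS-treated and 0.0825 to 0.1285% in untreated resident libraries, against 7.8e-05 to 7.93e-05% in LPS-treated and 0.000131 to 0.000163% in untreated BMDM, where Hbb-bt and Slc4a1 were at the floor. With LPS in resident libraries, 1 of the 13 neutrophil markers rose (Lcn2, 1.31 ± 0.16, adjusted p = 0.00106 by limma) and 2 fell. That is 7.69% and 15.4%, against 7.36% and 5.57% of all tested genes. The part of these other cells in the resident LPS differences, and in the differences between resident macrophages and BMDM, was not tested. In bulk RNA fewer cells of a type and less RNA per cell cannot be told apart. Replicate 1 of each resident group carried Y-linked transcripts and no other library did. Comparisons of resident macrophages with BMDM thus hold such libraries on the resident side only.

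Myc, the activator of the network, stood at the same level in both kinds of untreated macrophage and at very different levels after LPS. It had 2147, 2274 and 2448 normalised reads in LPS-treated resident macrophages, against 1317, 1886 and 1839 in untreated ones. Every LPS-treated resident library was above every untreated one. In BMDM, Myc had 281 and 245 normalised reads with LPS, against 1711 and 1663 without. The BMDM groups were far apart and in the opposite order. The log2 difference with LPS was 0.46 ± 0.13 (SE) in resident macrophages, or 1.38-fold, and -2.68 ± 0.16 in BMDM, a level 6.41-fold lower. The resident response minus the BMDM response was 3.14 ± 0.20 on the log2 scale.

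The order of the Myc levels was LPS-treated resident macrophages (2290 ± 151, SD, n = 3), untreated BMDM (1687 ± 33.7, n = 2), untreated resident macrophages (1681 ± 316, n = 3) and LPS-treated BMDM (263 ± 25.1, n = 2). The untreated groups overlapped, with a resident minus BMDM difference of -0.02 ± 0.14. After LPS, the resident level was 3.12 ± 0.14 log2 units above BMDM.

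**Figure D1:**
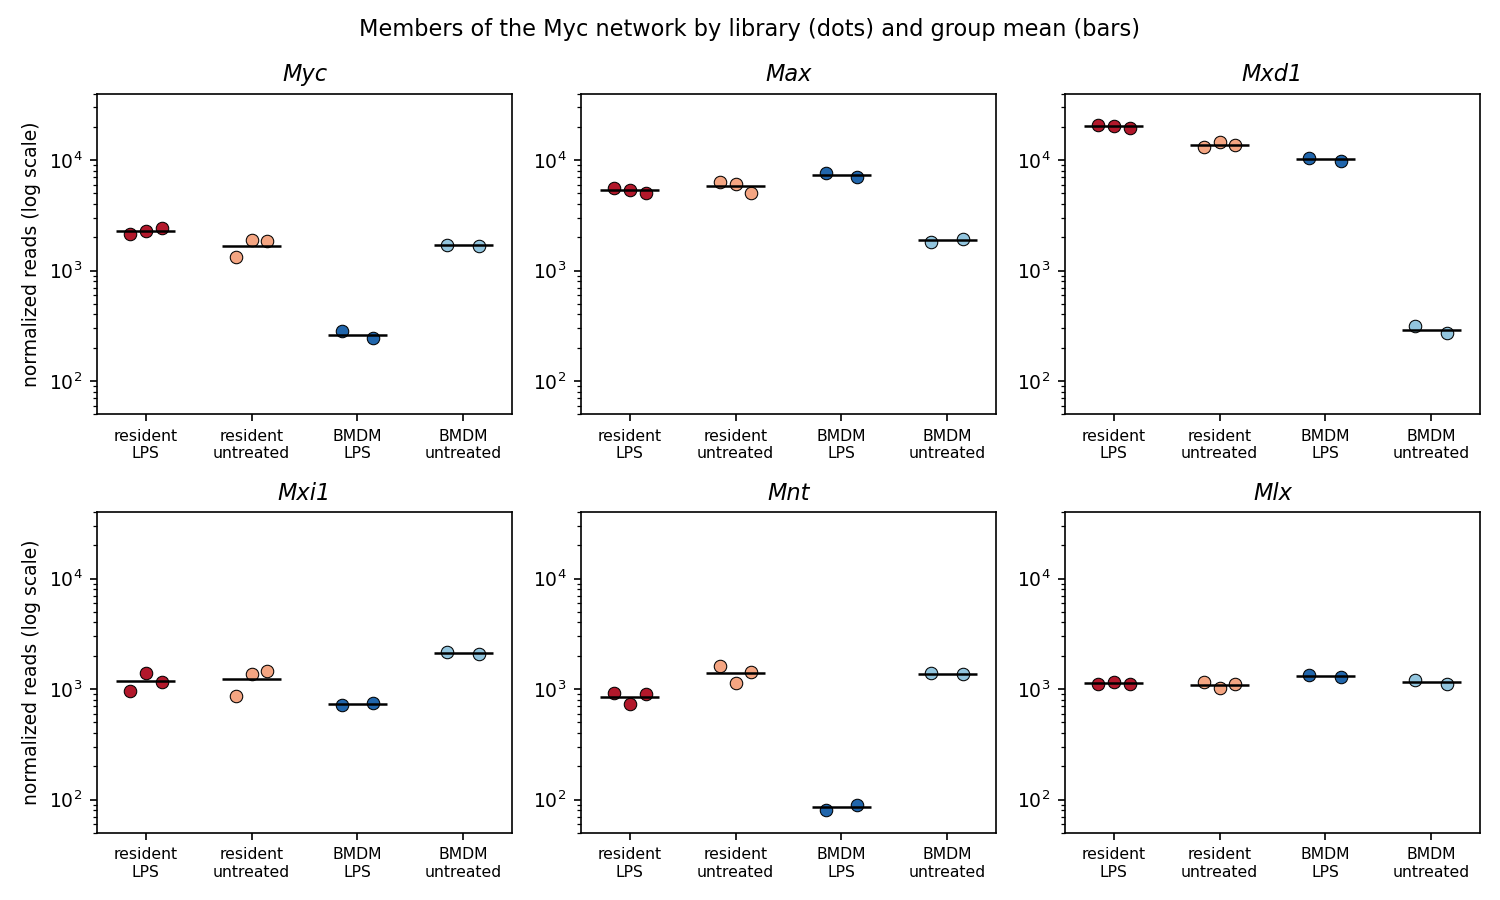
Normalised reads (log scale) of the 6 genes in each of the 10 libraries, 1 dot per library and a bar at the group mean. Myc and Mnt drop to their lowest levels in LPS-treated BMDM, while Max and Mxd1 are lowest in untreated BMDM and Mlx is nearly level.

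Among the 5 tested members, LPS changed 4 in BMDM (Max and Mxd1 rose, Mxi1 and Mnt fell), where 57.8% of all tested genes were called (limma, adjusted p under 0.05). In resident macrophages it changed 2 (Mxd1 rose, Mnt fell), where 12.9% of genes were called. The response differed between resident macrophages and BMDM for 4 of the 5, all but Mlx, where 41.8% of genes were called. Each gene is described below in the order of partner, antagonists and parallel partner.

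Max, the partner that MYC and its antagonists share, was high in resident macrophages with or without LPS, low in untreated BMDM and highest in BMDM after LPS. It had 5545, 5304 and 5072 normalised reads in LPS-treated resident macrophages, against 6389, 6012 and 5043 in untreated ones. These groups overlapped, and the log2 change was -0.13 ± 0.09 (adjusted p = 0.427, and -0.25 with adjusted p = 0.0291 under equal library totals). In BMDM, Max had 7594 and 7032 with LPS, against 1830 and 1909 without. LPS raised it 3.91-fold there, by 1.97 ± 0.11 log2 units (adjusted p = 1.27e-07), and the responses differed by -2.09 ± 0.14 (resident minus BMDM, adjusted p = 1.28e-06). Untreated resident macrophages had 3.09-fold more Max than untreated BMDM, a log2 difference of 1.63 ± 0.10 (adjusted p = 2.51e-07). After LPS the resident level was lower than in BMDM by a small margin, -0.46 ± 0.10 (adjusted p = 0.00204), and this call was lost with quantile normalization (-0.15) and with equal library totals (-0.14).

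Mxd1, an antagonist that takes MAX away from MYC, was high in resident macrophages before LPS and was switched up from a low level in BMDM. It had 20695, 20226 and 19586 normalised reads in LPS-treated resident macrophages, against 13020, 14693 and 13710 in untreated ones. The groups did not overlap, and Mxd1 rose 1.46-fold (0.55 ± 0.08 log2 units, adjusted p = 0.00227). In BMDM it had 10525 and 9715 with LPS, against 312 and 271 without. LPS thus raised it 34.6-fold, by 5.11 ± 0.10 log2 units (adjusted p = 1.26e-10), to a level that still lay below every resident library. The resident response minus the BMDM response was -4.57 ± 0.12 log2 units (adjusted p = 4.8e-09). Untreated resident macrophages had 47.2-fold more Mxd1 than untreated BMDM (5.56 ± 0.09, adjusted p = 1.47e-10), and LPS-treated resident macrophages had 1.99-fold more than LPS-treated BMDM (1.00 ± 0.09, adjusted p = 3.66e-06).

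Mnt, the antagonist that is widely present in both resting and growing cells, overlapped between the untreated groups and was far lower in BMDM with LPS. It had 919, 727 and 901 normalised reads in LPS-treated resident macrophages, against 1604, 1145 and 1420 in untreated ones. All LPS-treated resident libraries were below all untreated ones, and Mnt fell by 0.70 log2 units (-0.70 ± 0.13, adjusted p = 0.00863). The adjusted p was 0.0554 when the resident groups were fitted alone. In BMDM, Mnt had 80.2 and 89.4 normalised reads with LPS, against 1392 and 1370 without, a level 16.1-fold lower (-4.01 ± 0.16, adjusted p = 1.12e-08). The fall was larger in BMDM, with a difference of 3.31 ± 0.21 (adjusted p = 7.91e-07). The untreated groups overlapped (0.00 ± 0.15, adjusted p = 0.98), and with LPS resident macrophages had 9.86-fold more Mnt than BMDM (3.30 ± 0.15, adjusted p = 3.76e-08). Myc and Mnt were thus both level between the untreated groups and both lowest in LPS-treated BMDM, while their resident log2 differences with LPS had opposite signs (0.46 and -0.70).

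Mxi1, the antagonist also known as MXD2, fell with LPS in BMDM and overlapped in resident macrophages. It had 967, 1398 and 1162 normalised reads in LPS-treated resident macrophages, against 870, 1359 and 1447 in untreated ones, a log2 change of -0.04 ± 0.19 (adjusted p = 0.926). In BMDM it had 710 and 745 with LPS, against 2158 and 2073 without, 2.91-fold lower (-1.54 ± 0.23, adjusted p = 0.000203). Untreated BMDM held the highest level and LPS-treated BMDM the lowest, with both resident groups between them. The responses differed by 1.5 ± 0.29 (adjusted p = 0.00224). Untreated resident macrophages had less Mxi1 than untreated BMDM (-0.82 ± 0.21, adjusted p = 0.00474), and LPS-treated resident macrophages had more than LPS-treated BMDM (0.68 ± 0.21, adjusted p = 0.0136). The second of these calls was lost without BMDM LPS replicate 1 (0.64, adjusted p = 0.0752) or without BMDM LPS replicate 2 (0.71, adjusted p = 0.0530).

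Mlx, the parallel partner, had the smallest BMDM change of the 6 members. It had 1117, 1146 and 1109 normalised reads in LPS-treated resident macrophages, against 1150, 1027 and 1099 in untreated ones. In BMDM it had 1338 and 1275 with LPS, against 1200 and 1121 without. Neither LPS change passed the threshold (0.04 ± 0.07, adjusted p = 0.758 in resident macrophages, and 0.17 ± 0.08, adjusted p = 0.108 in BMDM), nor did their difference (-0.13 ± 0.11, adjusted p = 0.383), and the values depended on the settings. The BMDM change was called with array weights (0.17, adjusted p = 0.0136) and, downwards, with equal library totals (-0.44, adjusted p = 0.00253), was -0.02 with quantile normalization, and the difference of the responses was 0.36 (adjusted p = 0.0376) with equal totals. Between the untreated groups the log2 difference was -0.09 and was not called, but it was called with quantile normalization (-0.22, adjusted p = 0.0201), equal library totals (-0.25, adjusted p = 0.0298) and array weights (-0.14, adjusted p = 0.0406). LPS-treated resident macrophages had slightly less Mlx than LPS-treated BMDM (-0.22 ± 0.08, adjusted p = 0.0277). That call was lost without resident LPS replicate 3 (-0.21, adjusted p = 0.0575), without BMDM LPS replicate 1 (-0.18, adjusted p = 0.162) and without BMDM LPS replicate 2 (-0.25, adjusted p = 0.0650), and the value was -0.17 with quantile normalization (adjusted p = 0.0598), -0.16 with median-ratio factors (adjusted p = 0.0854) and 0.11 with equal library totals.

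Between the untreated groups 3 of the 5 tested members were called, with Max and Mxd1 higher and Mxi1 lower in resident macrophages, where 71.9% of genes were called. Between the LPS-treated groups all 5 were called, where 71.3% of genes were called. These shares of members are not far from the background, and their sizes, from 0.22 log2 units for Mlx to 5.56 for Mxd1, carry the description. Averaged over treatments, Max (0.58 ± 0.07, adjusted p = 2.75e-05), Mxd1 (3.28 ± 0.06, adjusted p = 6.54e-11) and Mnt (1.65 ± 0.11, adjusted p = 2.08e-07) were higher in resident macrophages, and Mxi1 was not called (-0.07 ± 0.15, adjusted p = 0.66), where 78% of all tested genes were called. Mlx was lower by 0.15 log2 units (-0.15 ± 0.05, adjusted p = 0.0257), and its adjusted p was 0.115 with median-ratio factors, 0.331 with equal library totals, 0.0542 without resident untreated replicate 2, 0.0974 without BMDM LPS replicate 1 and 0.116 without BMDM untreated replicate 1.

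**Figure D2:**
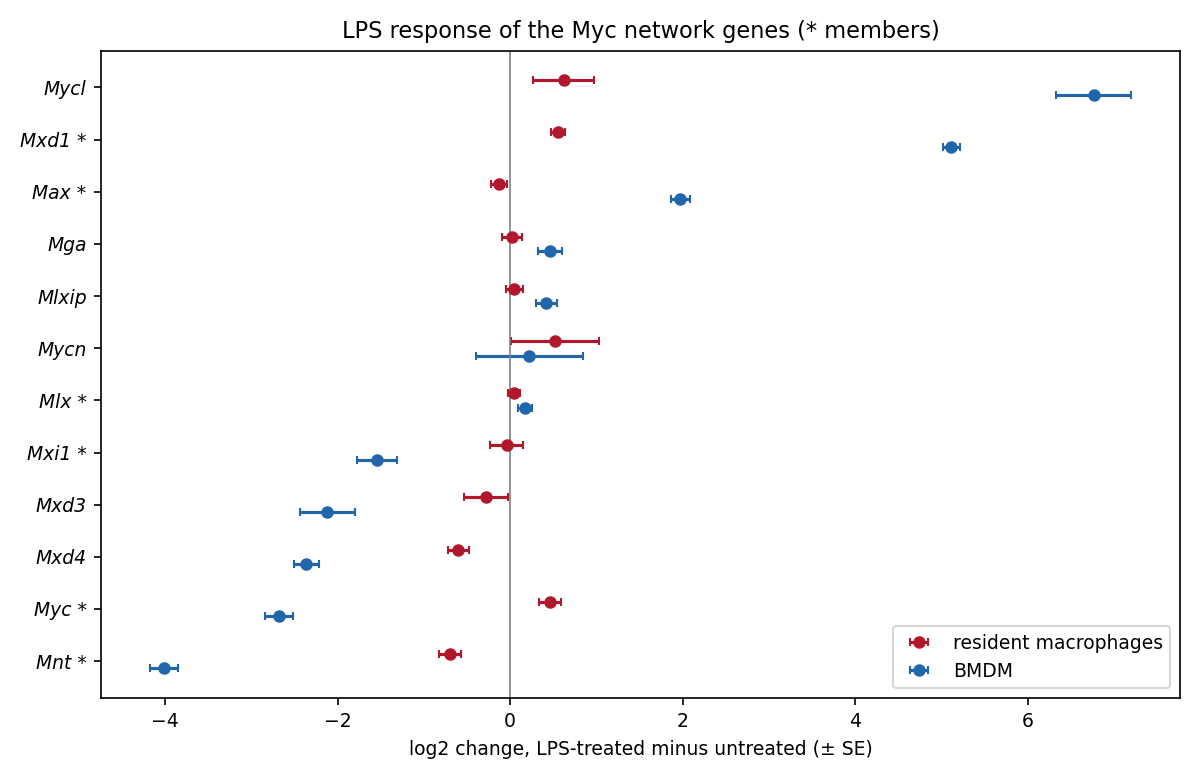
Log2 change with LPS (LPS-treated minus untreated, ± SE) of 12 network genes in resident macrophages and BMDM, with the 6 members starred. BMDM changes run from -4.01 for Mnt to 6.76 for Mycl, while resident changes stay between -0.70 and 0.62.

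Of 7 further genes of the network, 6 were in the table (all but Mlxipl), and Mycl, the MYC relative first found in lung cancer, changed most. Mycl had 3358 and 3632 normalised reads in LPS-treated BMDM, against 35.6 and 27.4 in untreated BMDM. It rose by 6.76 ± 0.43 log2 units there (adjusted p = 3.17e-07). In resident macrophages it had 187, 159 and 71.6 with LPS, against 85.6, 117 and 58.1 without, and these groups overlapped (0.62 ± 0.35, adjusted p = 0.293). Without resident LPS replicate 3, the lowest of its group, the value was 1.04 and the adjusted p was 0.0471. The resident response minus the BMDM response was -6.14 ± 0.55 log2 units (adjusted p = 9.81e-06). The Mycl and Myc differences with LPS in BMDM thus had opposite signs.

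Mycn, the third MYC family gene, was detected in resident macrophages and barely in BMDM. It had 166, 410 and 270 normalised reads in LPS-treated resident macrophages, against 96.3, 317 and 204 in untreated ones (0.52 ± 0.51, adjusted p = 0.581). The BMDM libraries held 3 and 2 reads with LPS, against 5 and 0 without, too few for a fold change. Summed markers of granulocyte precursors, of stem and progenitor cells and of B-lineage cells followed the same order between the origins. The 5 granulocyte precursor markers summed to 0.0294 to 0.0592% of the values in LPS-treated and 0.0241 to 0.08235% in untreated resident libraries, against 0.000117 to 0.000157% in LPS-treated and 0.000196 to 0.000331% in untreated BMDM. The 7 stem and progenitor markers gave 0.00631 to 0.0104% in LPS-treated and 0.0051 to 0.0109% in untreated resident libraries, against 0.0005065 to 0.000571% in LPS-treated and 0.00122 to 0.00132% in untreated BMDM, where Mecom was at the floor. The 9 B-lineage markers gave 0.0183 to 0.02645% in LPS-treated and 0.017 to 0.035% in untreated resident libraries, against 0.01176 to 0.01183% in LPS-treated and 0.0117 to 0.0121% in untreated BMDM, where Igll1 and Rag1 were at the floor. With LPS and without, 1 of the 9 B-lineage markers was instead lower in resident macrophages. The 6 dendritic cell markers had the same order without LPS (0.0339 to 0.0450% in resident libraries, 0.0135 to 0.0145% in BMDM). With LPS their order was the opposite (0.03525 to 0.0394% in resident libraries, 0.0423 to 0.0453% in BMDM). The part of such cells in the Mycn level of resident libraries was not tested.

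Mxd4, another MAX-binding repressor, had 195, 241 and 220 normalised reads in LPS-treated resident macrophages, against 314, 352 and 331 in untreated ones, and fell (-0.60 ± 0.12, adjusted p = 0.0114, and 0.0556 with the resident groups fitted alone). In BMDM it had 96.7 and 112 with LPS, against 513 and 565 without, and fell further (-2.36 ± 0.15, adjusted p = 3.25e-07), with a difference of 1.75 ± 0.19 (adjusted p = 4.45e-05). Mxd3, the member of that family tied to S phase, averaged 20.0 ± 5.23 in LPS-treated BMDM and 88.5 ± 5.00 in untreated BMDM (-2.12 ± 0.32, adjusted p = 0.000231). Its resident values, 105 ± 15.1 with LPS and 132 ± 42.2 without, did not pass the threshold (-0.28 ± 0.26, adjusted p = 0.553), and the responses differed by 1.84 ± 0.41 (adjusted p = 0.00494). So of the 5 MXD and MNT family genes, Mnt, Mxi1, Mxd3 and Mxd4 fell with LPS in BMDM and Mxd1 rose.

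Mga, a MAX-binding repressor, and Mlxip, a glucose-sensing partner of MLX, were higher in LPS-treated BMDM by 0.46 ± 0.14 (adjusted p = 0.0192) and 0.42 ± 0.12 (adjusted p = 0.0112). Both values turned negative with equal library totals (-0.15 and -0.19), and both calls were lost with quantile normalization (adjusted p 0.246 and 0.426). The Mga call was lost without BMDM LPS replicate 2, BMDM untreated replicate 1 or BMDM untreated replicate 2 (adjusted p 0.166, 0.0887 and 0.0637). The Mlxip call was lost without BMDM LPS replicate 1, BMDM LPS replicate 2 or BMDM untreated replicate 2 (adjusted p 0.0509, 0.0566 and 0.0653).

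To compare levels between genes, the normalised reads were divided by each gene's annotated exon length in kilobases. That length joins the exons of all annotated transcripts of a gene. The transcripts present may be shorter, so levels and shares compared between genes are approximate. Myc stood at 843 per kb in LPS-treated and 619 in untreated resident macrophages, and at 96.8 in LPS-treated and 621 in untreated BMDM. Mxd1 was the most abundant member per kb in resident macrophages (2852 with LPS and 1952 without), came after Max in LPS-treated BMDM (1431, against 2032 for Max) and was the lowest in untreated BMDM (41.2). Mycl, at 866 per kb in LPS-treated BMDM against 7.80 in untreated BMDM, reached there the level that Myc had in the other groups. Of the summed Myc, Mycl and Mycn level per kb, Myc made up 87.6 ± 3.46% in LPS-treated and 88.4 ± 3.20% in untreated resident macrophages, 10.1 ± 1.36% in LPS-treated BMDM and 98.6 ± 0.316% in untreated BMDM.

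The ratio of antagonists to Myc alone stayed level with LPS in resident macrophages and shifted in BMDM. Summed per kb, Mxd1, Mxi1 and Mnt stood at 4.13, 3.85 and 3.48 times Myc in LPS-treated resident macrophages, against 4.78, 3.64 and 3.63 times in untreated ones, and these ranges overlapped. In BMDM the ratio was 15.6 and 16.7 with LPS, against 1.05 and 1.04 without. Its divisor, Myc, was picked for its LPS differences, and the ratio leaves out Mycl and Mycn. Mycl per kb was 9.01 ± 1.36 times Myc in LPS-treated BMDM and 0.0125 ± 0.00204 times in untreated BMDM. The BMDM shift is therefore described against Myc alone. A ratio of the antagonists to the summed MYC family was not calculated. The makeup of the antagonists also differed. Mxd1 supplied 88.9 ± 0.624% of their sum in LPS-treated and 80.2 ± 1.82% in untreated resident macrophages, 91.95 ± 0.720% in LPS-treated BMDM and 6.34 ± 0.463% in untreated BMDM. Untreated BMDM instead held Mxi1 (47.7%) and Mnt (46.0%) in like shares. Max per kb was 1.76 ± 0.193 times Myc in LPS-treated and 2.71 ± 0.839 times in untreated resident macrophages, and 21.0 ± 0.869 times in LPS-treated and 0.837 ± 0.0417 times in untreated BMDM. These ratios were not tested, and transcript levels say nothing of the proteins.

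**Figure D3:**
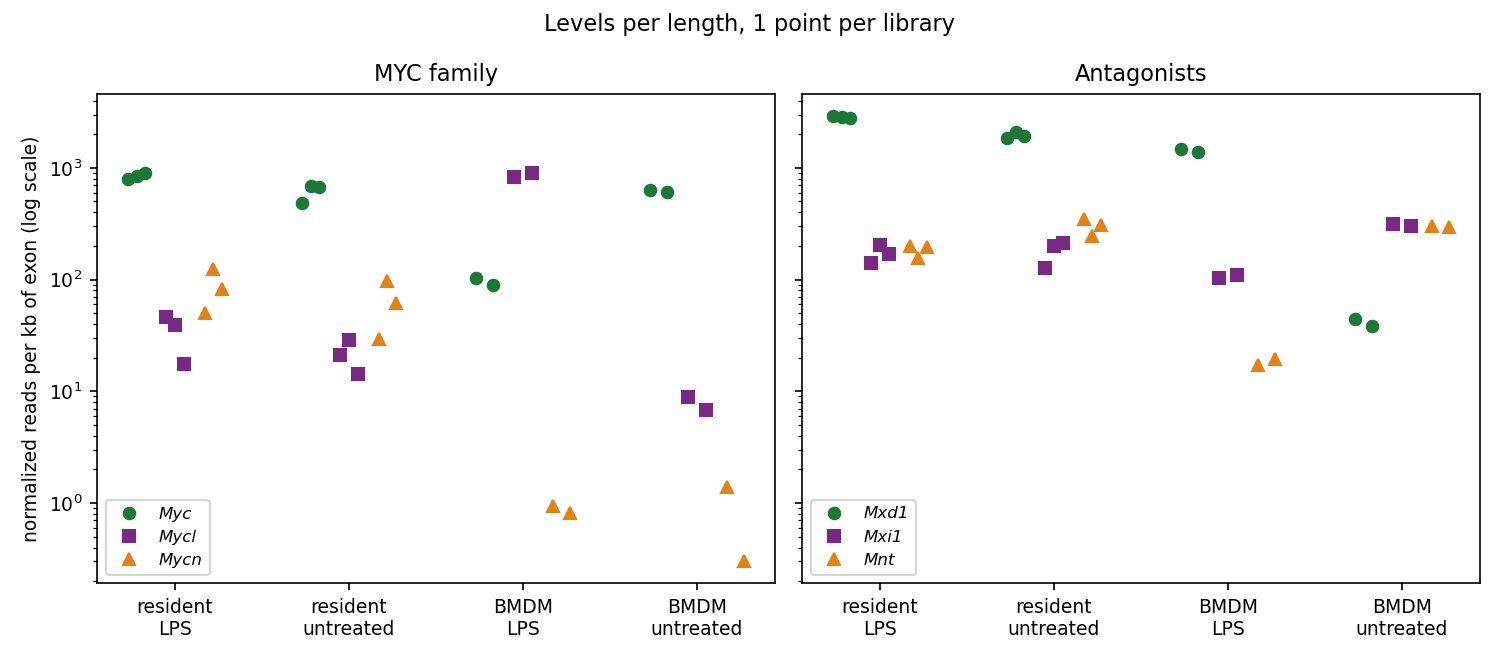
Normalised reads per kb of exon (log scale), 1 point per library, for the MYC family genes on the left and the antagonists on the right. In LPS-treated BMDM Mycl (866 on average) stands above Myc (96.8), and in untreated BMDM Mxd1 (41.2) stands below Mxi1 (310) and Mnt (299).

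Counts of called genes in the lists that follow are set against all tested genes, of which LPS raised 28.3% and lowered 29.5% in BMDM (57.8% together), and raised 7.36% and lowered 5.57% in resident macrophages (12.9%). Of 17 genes for SIN3 and related corepressor subunits, which the MXD proteins recruit, none was called with LPS in resident macrophages by limma or by voom (2 had an unadjusted p under 0.05), while 7 rose and 6 fell in BMDM, 41.2% and 35.3% of the list against 28.3% and 29.5% of all genes (median 0.14, against -0.04 over all genes). With equal library totals 3 of them rose and 10 fell. Sap30, a SIN3 subunit, rose to 10325 ± 451 normalised reads in LPS-treated BMDM, against 1205 ± 16.4 in untreated BMDM (3.10 ± 0.12, adjusted p = 8.27e-09). The deacetylase gene Hdac1 rose by 1.52 ± 0.11 (adjusted p = 1.03e-06). The scaffold gene Sin3a fell by 0.96 log2 units (-0.96 ± 0.09, adjusted p = 5.98e-06).

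Of 15 genes for coactivators and partners of MYC, none was called in resident macrophages by limma or by voom (1 had an unadjusted p under 0.05), and 4 rose and 4 fell in BMDM (median 0.09). That is 26.7% of the list in each direction, against 28.3% and 29.5% of all genes, and so no more than the background. Ep400, the ATPase of the TIP60 complex, rose by 1.64 ± 0.09 (adjusted p = 1.02e-07), and Cdk9, the kinase that releases paused polymerase, fell (-0.52 ± 0.09, adjusted p = 0.000469). Of 17 genes for turnover of the MYC protein, 3 rose and 6 fell in BMDM (median 0.03), 17.6% and 35.3% of the list against the same 28.3% and 29.5%, a share near the background. Ppp2r5a, a regulatory subunit of the phosphatase PP2A, rose by 2.76 ± 0.09 (adjusted p = 2.61e-09), and Skp2, a ubiquitin ligase subunit, fell (-1.68 ± 0.18, adjusted p = 1.62e-05). Fbxw7, the ligase subunit that marks phosphorylated MYC, rose by 0.56 ± 0.10 (adjusted p = 0.00101), but was at -0.05 with equal library totals. Only 1 turnover gene was called in resident macrophages, the ligase gene Stub1 (-0.32 ± 0.08, adjusted p = 0.0295). The Stub1 call was lost, with adjusted p between 0.0505 and 0.107, without resident LPS replicate 2 or 3, without resident untreated replicate 1 or 3, or without any BMDM library, and was 0.0666 with no variance trend and 0.113 with the resident groups fitted alone. The BMDM falls numbered 2 or 3 coactivator genes and 4 or 5 turnover genes when any BMDM library was left out, and 10 and 14 with equal library totals, where 1 gene of each list rose.

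Known MYC targets in ribosome production, metabolism and the cell cycle were more often lower than higher in LPS-treated BMDM, although many individual targets rose. Of 38 nucleolar and ribosome biogenesis genes, 6 rose and 18 fell in BMDM, that is 15.8% and 47.4% of the list, against 28.3% and 29.5% of all tested genes. Their median was -0.20, against -0.04 over all genes. The falls numbered 14 to 16 when any BMDM library was left out, 27 with quantile normalization and 33 with equal library totals. Gnl3, a nucleolar GTPase also called nucleostemin, fell to 404 ± 23.8 normalised reads in LPS-treated BMDM, against 1287 ± 35.7 in untreated BMDM (-1.67 ± 0.13, adjusted p = 1.4e-06). Polr1b, a subunit of RNA polymerase I, fell by 1.81 (-1.81 ± 0.13, adjusted p = 1.08e-06), and Ppan by 1.65 (-1.65 ± 0.13, adjusted p = 1.39e-06). Against this, Rcl1, a factor of 18S rRNA processing, rose by 2.72 ± 0.11 (adjusted p = 9.27e-09), and Wdr43 (1.63 ± 0.07, adjusted p = 1.31e-08) and Tcof1 (1.52 ± 0.10, adjusted p = 3.8e-07) rose too.

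In resident macrophages 3 of these 38 genes rose (7.89%) and none fell by limma or voom (2 were lower at an unadjusted p under 0.05), against 7.36% and 5.57% of all genes, with a median of 0.04 against 0.00 over all genes. Rcl1 averaged 1060 ± 35.7 in LPS-treated and 759 ± 61.3 in untreated resident macrophages (0.48 ± 0.09, adjusted p = 0.00724). Nop58, a core protein of box C/D nucleolar particles, rose by 0.33 ± 0.07 (adjusted p = 0.0117) and was lower in LPS-treated BMDM (-0.22 ± 0.08, adjusted p = 0.0408), which is the pattern of Myc itself on a smaller scale. The resident Nop58 call was lost with equal library totals (0.20, adjusted p = 0.209) and with the resident groups fitted alone (adjusted p = 0.0713). The Nop58 responses differed by 0.54 ± 0.10 (adjusted p = 0.00205). Wdr43 was higher by 0.24 ± 0.06 (adjusted p = 0.0209), a call lost without resident LPS replicate 2, resident untreated replicate 2 or resident untreated replicate 3 (adjusted p 0.0751, 0.0510 and 0.0570), with equal library totals (0.11, adjusted p = 0.31), with no variance trend (adjusted p = 0.0506) and with the resident groups fitted alone (adjusted p = 0.0984).

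Of 33 polyamine, nucleotide, one-carbon and transport genes, 7 rose and 16 fell in BMDM, 21.2% and 48.5% of the list against 28.3% and 29.5% of all genes, with a median of -0.28. The falls numbered 12 to 14 when any BMDM library was left out and 23 with equal library totals. The pyrimidine synthesis genes Umps (-1.72 ± 0.11, adjusted p = 4.7e-07), Ctps (-1.69 ± 0.14, adjusted p = 2.19e-06) and Cad (-1.28 ± 0.19, adjusted p = 0.00022) were among those that fell. Hexokinase 2 (Hk2) rose by 2.19 ± 0.14 (adjusted p = 3.15e-07), the glucose transporter gene Slc2a1 by 1.22 ± 0.13 (adjusted p = 1.61e-05) and the serine synthesis gene Psat1 by 1.59 ± 0.13 (adjusted p = 2.48e-06). In resident macrophages 2 genes of this list rose (6.06%, against 7.36% of all genes) and none fell by limma or voom (4 were lower at an unadjusted p under 0.05), against 5.57% of all genes. Hk2 averaged 6078 ± 345 with LPS and 4321 ± 775 without (0.51 ± 0.11, adjusted p = 0.0174, 0.0538 without resident untreated replicate 2 and 0.0901 with the resident groups fitted alone).

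Of 20 cell cycle genes, 2 rose and 12 fell in BMDM, 10.0% and 60.0% of the list against 28.3% and 29.5% of all genes, with a median of -0.81. The falls numbered 9 or 10 when any BMDM library was left out and 17 with equal library totals. E2f2, a factor of S-phase entry, fell to 27.8 ± 2.89 normalised reads in LPS-treated BMDM, against 591 ± 20.8 in untreated BMDM (-4.37 ± 0.30, adjusted p = 5.31e-07). The replication helicase gene Mcm2 fell by 1.93 (-1.93 ± 0.27, adjusted p = 0.000156), and the MYC target Cdca7 by 3.60 (-3.60 ± 0.32, adjusted p = 5.15e-06). The cyclin D2 gene Ccnd2 went the other way, with 12863 ± 410 in LPS-treated BMDM and 98.1 ± 9.50 in untreated BMDM (7.02 ± 0.12, adjusted p = 1.03e-10). Cyclin E1 (Ccne1) also rose (2.07 ± 0.26, adjusted p = 6.27e-05).

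In resident macrophages 1 of the 20 rose and 1 fell, 5.0% each, against 7.36% and 5.57% of all genes. The gene that rose was Ccnd2, with 6665 ± 749 in LPS-treated and 4160 ± 314 in untreated cells (0.68 ± 0.10, adjusted p = 0.00228). The list's resident median was 0.10. Cdk4 was lower (-0.28 ± 0.07, adjusted p = 0.0295), with adjusted p between 0.0567 and 0.0971 without resident LPS replicate 2 or 3, without resident untreated replicate 2 or 3, or without any BMDM library, 0.0614 with no variance trend and 0.123 with the resident groups fitted alone. Beside this, the 8 markers of dividing cells summed to 0.0210 to 0.0221% of the values in LPS-treated BMDM, against 0.0428 to 0.0459% in untreated BMDM, and 7 of the 8 fell. In resident libraries they summed to 0.0275 to 0.0436% with LPS, against 0.0208 to 0.0474% without, and none was called by limma or voom or had an unadjusted p under 0.05. The part of the share of dividing cells in the Myc and target values was not tested.

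Of 10 translation factor genes, none was called in resident macrophages by limma or by voom (1 had an unadjusted p under 0.05). In BMDM 5 were higher and 2 lower, 50% and 20.0% of the list against 28.3% and 29.5% of all genes, but 3 and 1 when any BMDM library was left out. With quantile normalization, and with equal library totals, 1 was higher and 7 were lower. The cap-binding factor gene Eif4e rose by 0.82 ± 0.12 (adjusted p = 0.000214, and 0.14 with adjusted p = 0.204 under quantile normalization), and Eif4b, a helper of the RNA helicase, fell by 0.73 (-0.73 ± 0.11, adjusted p = 0.000263). The list's median was 0.16 as deposited and -0.54 with quantile normalization, against -0.21 over all genes under that scaling.

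Of 9 genes known to be repressed by MYC, 2 rose and 4 fell in BMDM, 22.2% and 44.4% of the list against 28.3% and 29.5% of all genes, and 2 rose and 2 fell in resident macrophages, 22.2% each against 7.36% and 5.57%. With equal library totals 7 fell in BMDM. Cdkn1a, the cell cycle inhibitor p21, rose to 66706 ± 191 normalised reads in LPS-treated BMDM, against 5661 ± 78.3 in untreated BMDM (3.56 ± 0.15, adjusted p = 1.38e-08). Cebpa, a myeloid differentiation factor, fell in BMDM (-3.62 ± 0.23, adjusted p = 3e-07) and in resident macrophages (-1.20 ± 0.19, adjusted p = 0.00334). The stress factor gene Ddit3 also fell in both, by 1.09 in BMDM (-1.09 ± 0.11, adjusted p = 1.41e-05) and by 0.57 in resident macrophages (-0.57 ± 0.09, adjusted p = 0.00408).

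Thbs1, the gene of the matrix protein thrombospondin 1, had the same signs as Myc. It averaged 26233 ± 4330 in LPS-treated and 13607 ± 4706 in untreated resident macrophages (1.00 ± 0.23, adjusted p = 0.02), against 1462 ± 64.8 in LPS-treated and 10421 ± 269 in untreated BMDM (-2.83 ± 0.28, adjusted p = 1.14e-05), and the responses differed by 3.83 ± 0.37 (adjusted p = 1.55e-05). The resident Thbs1 call was lost without resident LPS replicate 2 (0.89, adjusted p = 0.0760) or resident LPS replicate 3 (0.98, adjusted p = 0.0613), with quantile normalization (0.84, adjusted p = 0.0678), with equal library totals (0.88, adjusted p = 0.0519) and with the resident groups fitted alone (adjusted p = 0.104). Cdkn1a was higher in LPS-treated resident macrophages (0.48 ± 0.12, adjusted p = 0.0302), with adjusted p between 0.0546 and 0.0912 without resident LPS replicate 1 or 2, without resident untreated replicate 3, or without any BMDM library, 0.0558 with quantile normalization, 0.0572 with no variance trend and 0.125 with the resident groups fitted alone.

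Of 6 glucose-responsive targets of the MLX dimers, 1 rose and 1 fell in resident macrophages (16.7% each, against 7.36% and 5.57% of all genes). In BMDM 2 rose and 3 fell (33.3% and 50%, against 28.3% and 29.5%), but 1 rose and 1 or 2 fell when any BMDM library was left out, and the calls were 3 falls with equal library totals. Arrdc4, an arrestin relative of Txnip, rose by 0.61 ± 0.10 in resident macrophages (adjusted p = 0.00395) and by 0.66 ± 0.12 in BMDM (adjusted p = 0.000851), and these responses did not differ past the threshold (-0.05 ± 0.16, adjusted p = 0.833). With equal library totals the BMDM value was 0.05. Klf10 fell in both, by 0.39 in resident macrophages (-0.39 ± 0.07, adjusted p = 0.00575) and by 1.11 in BMDM (-1.11 ± 0.08, adjusted p = 1.18e-06).

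**Figure D4:**
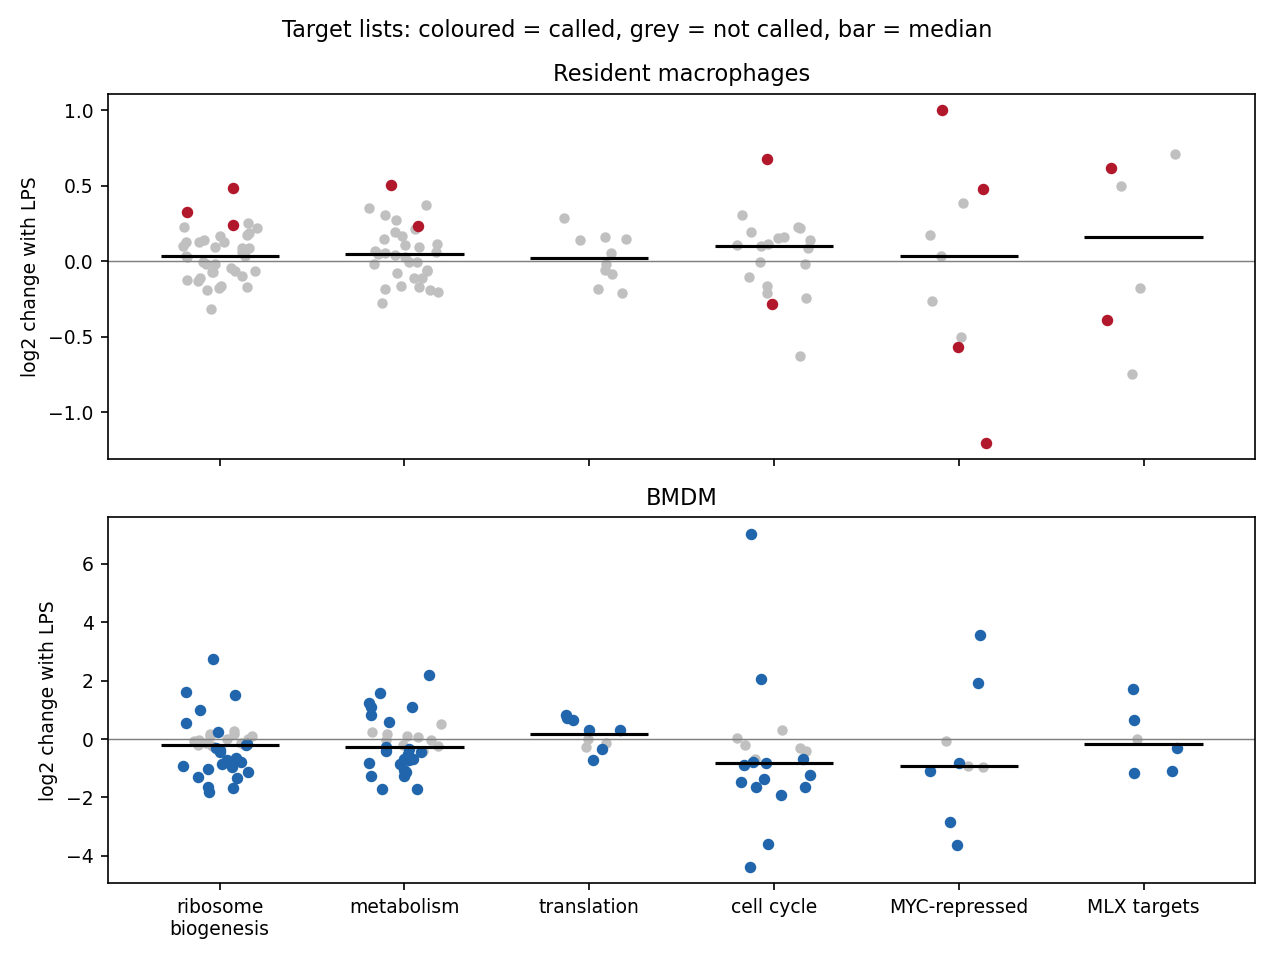
Log2 change with LPS of each tested gene in 6 target lists, in resident macrophages (top) and BMDM (bottom, with a wider axis), coloured where the adjusted p is under 0.05, with a bar at the list's median. Resident medians lie between 0.02 and 0.16, while in BMDM the cell cycle and MYC-repressed lists have medians of -0.81 and -0.93.

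CACGTG was present in the promoter windows of 25.0% of the ribosome biogenesis genes with a window (8 of 32), 28.6% of the metabolism genes (8 of 28), 55.6% of the translation factor genes (5 of 9) and 12.5% of the cell cycle genes (2 of 16). It was in none of the 8 windows of MYC-repressed genes, and 11.5% of the tested genes with a window held it. These lists were chosen from known targets, so the shares are a description.

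The genes most like each member over the 10 libraries were found by Pearson's r of log2 values among 10339 genes with a mean of at least 100. The 10 libraries form 4 groups, so each r mostly compares 4 group levels and carries no p. For Myc they were Zfp36l1 (0.990), a decay factor of AU-rich mRNAs, Iqsec1 (0.990), Wdhd1 (0.988), Abhd5 (0.986) and Nop56 (0.983), which is the partner of Nop58 in nucleolar particles. Mxd1 was matched most closely by Irf9 (0.998), a subunit of the interferon-activated factor ISGF3, the class I gene H2-Q7 (0.998) and the Notch ligand gene Dll1 (0.997). For Mxi1 the closest were Kif20a (0.990), G2e3 (0.985) and Hmmr (0.983), and for Mnt St6gal1 (0.997), Inf2 (0.996) and Gpr146 (0.996). Max was closest to Arl6ip1 (0.997), Urgcp (0.993) and Il13ra1 (0.992). Mlx had weaker matches, with Dhx38 (0.957) at the top. Among the members themselves, Myc was most like Mnt (0.913) and least like Mlx (-0.845), and Max was most like Mxd1 (0.918) and least like Mxi1 (-0.881).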

How the data were processed

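RNA of 10 mouse macrophage libraries was sequenced after a NEBNext Ultra RNA preparation, per the labels. The authors deposited a normalized signal per gene. Per the submitters' processing notes, reads were aligned with HISAT 0.1.7 and the build was mm10; the counter, gene annotation and strand setting are not stated there. From the values, each library is read counts divided by 1 factor (0.892 to 1.35 normalised reads per read; 100% of low values whole within 0.02), with a floor of 1. Recovered depth was 27091734 to 37701333 reads per library, and precision rests mostly on the number of libraries. Genes with 10 or more in at least 2 libraries were kept (13755 of 13809). Values were tested as log2(value + 1) with limma 3.58.1 in R 4.3.3, with a variance trend and 1 model of the 4 groups over all libraries (6 residual degrees of freedom). Fold changes are on that scale, which understates changes of low genes. P-values were adjusted within each comparison over all tested genes (Benjamini-Hochberg), and genes with an adjusted p under 0.05 are called. Samples were grouped by the labels' source names, and replicate numbers follow accession order.

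The script was tested on simulated data. Named genes were all members, the other network genes, up to 3 called rises and 3 called falls with the largest change per list and LPS comparison (mean of at least 20 in the higher group), and the genes most like each member. Examples in the text are taken from these. A few of them are not reported here. The members and lists were chosen with earlier results of these data known. Alternatives changed the pseudocount, filter, scaling, variance model, libraries fitted and library weights, and left out each library.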

Additional observations from a re-analysis of the deposited data

Results flagged for a closer look

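The response to LPS differed between resident macrophages and BMDM (resident minus BMDM, log2, tested in limma as the difference itself) for Max (-2.09), Mxd1 (-4.57), Mxi1 (1.5) and Mnt (3.31). For Myc the difference was 3.14, with all LPS-treated resident libraries above and all LPS-treated BMDM libraries below their untreated libraries, and it was not tested because Myc was chosen on it. Among the other network genes the responses differed for Mycl (-6.14), Mxd3 (1.84) and Mxd4 (1.75). The resident changes were the smaller ones in size for all 8 of these genes.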

How the results depend on the processing

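The 10 libraries give small groups, and low transcripts such as Mycn in BMDM (0 to 5 reads) support no direction. No paired analysis was possible because the labels number the samples 1 to 10 and give no number that groups share. Y-linked transcripts set replicate 1 of both resident groups apart, and the fit with a term for them is the nearest to a block. With it, no network gene gained or lost a call with LPS in either kind of macrophage (Mycl 0.62, adjusted p = 0.186, and Mycn 0.52, adjusted p = 0.329, in resident macrophages), while the resident counts became 7 rises and 1 fall for metabolism, 3 and 2 for the cell cycle and 1 and 2 for corepressors. Tests of recovered reads by edgeR and DESeq2 were not run, and voom on recovered reads was chosen after seeing the data. For LPS in resident macrophages 1779 genes were called, against 529 with the resident groups fitted alone, 3449 with a covariate for Y-linked transcripts, 2893 without the 2 libraries that carry them and 970 (without resident LPS replicate 2) to 2290 when a library was left out (1185 without resident untreated replicate 3).

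Equal library totals moved the median of all genes to -0.12 with LPS in resident macrophages (0.00 as deposited), -0.64 in BMDM (-0.04) and 0.48 in their difference (0.02). Of the calls, 56.9% were higher in resident LPS, 49.0% in BMDM LPS, 45.5% in the difference and 51.5% between LPS-treated groups, against 27.1%, 21.7%, 75.2% and 68.2% with equal totals. Quantile normalization moved the BMDM median to -0.21, the share in the difference to 56.9% and that between untreated groups from 54.6% to 41.5%. Relative to the median of all genes the ribosome biogenesis median in BMDM was -0.15 as deposited, -0.17 with equal totals and -0.36 with quantiles, and Mlx was 0.21, 0.20 and 0.19. Without both Y-linked libraries, 8 ribosome biogenesis genes rose and 20 fell in BMDM, 8 and 18 of metabolism and 3 and 16 of the cell cycle.

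The Myc difference ran from 2.98 to 3.63 over the alternatives. Signs turned as follows, and the cause was not tested beyond the shift above. With equal totals, BMDM values were -0.44 for Mlx, -0.15 Mga, -0.19 Mlxip, -0.21 Mycn, -0.03 Kat5, -0.17 Crebbp, -0.05 Fbxw7 and -0.17 Spop; resident values were -0.08 for Mlx, -0.10 Mga and -0.07 Mlxip; the response differences were 0.36 for Mlx, 0.05 Mga and 0.12 Mlxip; and the Mlx difference between LPS-treated groups was 0.11. With quantiles, BMDM values were -0.02 for Mlx, -0.06 Eif2s1 and -0.27 Spop, and the Mlx response difference was 0.05. The mean resident minus BMDM difference of Mxi1 was 0.01 with equal totals, 0.04 with array weights, and 0.11 with the Y-linked term or without those libraries. The Mnt difference between untreated groups was 0.04 with median-ratio factors, and the Mycn response difference was -0.06 with array weights and -0.70 with voom. Leaving out 1 library at a time, the resident LPS values ran over -0.27 to 0.10 for Mxi1, 0.00 to 0.08 for Mlx, -0.09 to 0.15 for Mga and -0.06 to 0.12 for Mlxip; Mycn over -0.51 to 0.96 in BMDM and -0.44 to 1.03 in the difference; Mnt between untreated groups over -0.12 to 0.13; and the Mxi1 mean difference over -0.14 to 0.04.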
